A study of Mus musculus with 4 samples.

Results

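The mRNAs of 7 proteins, listed as proteins that associate with maturing sperm, were followed through the mouse epididymis and vas deferens. Among them were the cysteine-rich secretory proteins *Crisp1* and *Crisp4* and the membrane-anchored ADAM proteins *Adam7* and *Adam28*. The others were the secreted chaperone clusterin (*Clu*), *Pate2* of the PATE family, and *Bsph2*, a binder of sperm homolog. They were taken by name, as 7 of the 16892 genes of a single-cell RNA-seq table, and all 7 were in it. The table holds 8880 cells of 4 libraries, 1 per region (caput, corpus, cauda or vas deferens), from FVB/NJ males aged 10 to 12 weeks. Each library pooled 8 pieces from the same 4 mice, for which the labels name no treatment or altered allele, so no region has a replicate, no test between regions was possible, and animals cannot be told apart. The levels below are the UMIs (unique molecular identifiers, each standing for 1 captured mRNA) that a gene had in a set of cells, per 1000000 UMIs of all genes in that set (UPM). Because a molecule gives 1 UMI at its 3′ end whatever its length, levels of different genes can be set side by side without dividing by length.

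Sperm leave the testis unable to swim or to fertilize, and they take up proteins from the epididymal lumen as they move along the duct. Principal cells, the tall secretory cells of the duct, release most of these proteins, some as soluble proteins and some on extracellular vesicles, and each stretch of the duct has its own set. Basal cells lie under the principal cells, and clear cells acidify the lumen.

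The libraries held 1433 to 3506 cells and 4408989 to 10744928 UMIs, and 3956 of the cells were principal cells, 736 in caput, 929 in corpus, 931 in cauda and 1360 in vas deferens. The deposited annotation divides them into 15 subclusters. The labelled types were checked against their markers: 4 of 4 clear, muscle, stromal, endothelial and immune markers and 3 of 4 basal markers were highest in their own type. No list was set for principal cells alone. Of 6 epithelium markers, *Aqp9* (55.6 UPM) and *Krt19* (587 UPM) were highest in principal cells and the other 4 in basal cells. The summed level of the 6 was 3555 UPM in principal, 4342 in clear and 6318 in basal cells. It was at most 177 UPM in the types that are not epithelium, so the sum did not set principal cells apart from other epithelium. In principal cells the summed level of the 4 basal markers was 29.9 to 82.5 UPM across libraries, against 3463 UPM in basal cells. That of the 4 stromal markers was 43.0 to 79.3 UPM, against 7537 UPM in stromal cells. Sperm were nearly absent, with 4 UMIs of *Prm1* and 2 of *Prm2*, the protamines of sperm chromatin, in all cells. Principal cells were shallow, with a median of 934.5 UMIs against 4333 in basal cells. Of all barcodes, 43 occurred in 2 libraries. All intervals below are 95% intervals for counting error alone.

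The 7 genes lie on 5 chromosomes of mm10 (GRCm38). *Crisp1* spans chr17:40293758-40319207 on the minus strand in 8 exons, and *Crisp4* spans chr1:18115191-18145902, also on the minus strand in 8 exons. *Adam7* (chr14:68497336-68533741) and *Adam28* (chr14:68606027-68655842) are neighbors on the minus strand, 72.3 kb apart, with *Adamdec1* between them. *Clu* (chr14:65968483-65981547) is on the same chromosome, on the plus strand. *Bsph2* spans chr7:13554864-13571067 on the minus strand. *Pate2* spans chr9:35570284-35690318 on the plus strand, and its span overlaps *Pate4*, *Pate3*, *Pate1* and *Hyls1* on the other strand. Whether the counting used strand was not given in the sources used here, so UMIs of *Pate2* and of these genes may not have been fully separated.

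RefSeq gave promoters (GRCm38.p6) for 4 of the 7, *Crisp1*, *Crisp4*, *Pate2* and *Bsph2*. The 250 bases before the start of 3 of them are shown. Among these 4 genes *Crisp1* and *Bsph2* reached the highest levels, and *Crisp4* is the close relative of *Crisp1*. Capitals mark TATAAA (a box found in some core promoters, searched on the gene's own strand) and AGAACA or its reverse complement TGTTCT (the core letters bound by the androgen and glucocorticoid receptors, searched on both strands).

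Crisp1 (chr17:40319208-40319457, minus strand): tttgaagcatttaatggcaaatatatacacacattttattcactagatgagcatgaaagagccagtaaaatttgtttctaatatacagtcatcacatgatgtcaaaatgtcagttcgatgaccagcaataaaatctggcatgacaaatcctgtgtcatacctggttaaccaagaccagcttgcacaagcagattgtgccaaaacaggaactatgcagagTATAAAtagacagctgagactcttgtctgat
Crisp4 (chr1:18145903-18146152, minus strand): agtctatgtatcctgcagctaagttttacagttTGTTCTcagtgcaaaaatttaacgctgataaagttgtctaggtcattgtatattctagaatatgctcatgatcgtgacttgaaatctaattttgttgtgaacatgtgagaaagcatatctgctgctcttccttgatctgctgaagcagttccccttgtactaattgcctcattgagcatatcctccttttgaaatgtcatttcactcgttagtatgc
Bsph2 (chr7:13571068-13571317, minus strand): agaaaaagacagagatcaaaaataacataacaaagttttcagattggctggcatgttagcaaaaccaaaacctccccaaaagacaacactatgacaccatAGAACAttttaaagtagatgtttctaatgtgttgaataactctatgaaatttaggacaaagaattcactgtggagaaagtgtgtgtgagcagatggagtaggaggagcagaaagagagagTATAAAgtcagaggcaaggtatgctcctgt

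The TATAAA began 31 bases before the start of *Crisp1* and 30 bases before that of *Bsph2*. It was in none of the 250 bases of *Crisp4* or *Pate2*, and 7.59% of 32851 promoters of the same length held it on that strand. AGAACA began 150 bases before the start of *Bsph2* and TGTTCT 217 bases before that of *Crisp4*, and 16.1% of the promoters held either. These are matches of letters only.

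The first comparison asked in which cells the 7 mRNAs were found. All 7 were highest in principal cells, as were 22.1% of the 12868 genes that reached 20 UMIs in a cell type. Of the 7, 6 were at least 4 times higher there than in each other cell type, with types at 0 raised to the level of 3 UMIs. Of the 5282 genes for which this was possible, 4.75% were. The ratio to the next type was 57.3 (interval 43.3 to 77.5) for *Adam7*, 30.9 (29.6 to 32.4) for *Crisp1*, 18.1 (9.52 to 39.7) for *Adam28*, 14.3 (10.6 to 19.7) for *Bsph2*, 13.8 (5.90 to 42.7) for *Crisp4* and 8.98 (6.27 to 13.4) for *Pate2*. The exception was *Clu*, at 3034 UPM in principal cells and 1650 UPM in basal cells, a ratio of 1.84 (1.80 to 1.88). Of its 40545 UMIs, 71.6% came from principal cells, against 92.6% to 98.3% for the other 6. The next type of *Adam28* was endothelial, where all 9 UMIs were in 2 cells of the caput.

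Together the 7 genes made up 464020 UMIs, 1.74% of all UMIs and 4.63% of those of principal cells. Most of this was *Crisp1*, with 395897 UMIs. The next was *Clu*, followed by *Adam7* with 18693, *Bsph2* with 4228, *Pate2* and *Adam28* with 1903 each, and *Crisp4* with 851. The levels in principal cells therefore ran from 82.7 UPM for *Crisp4* to 40417 UPM for *Crisp1*.

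**Figure D1:**
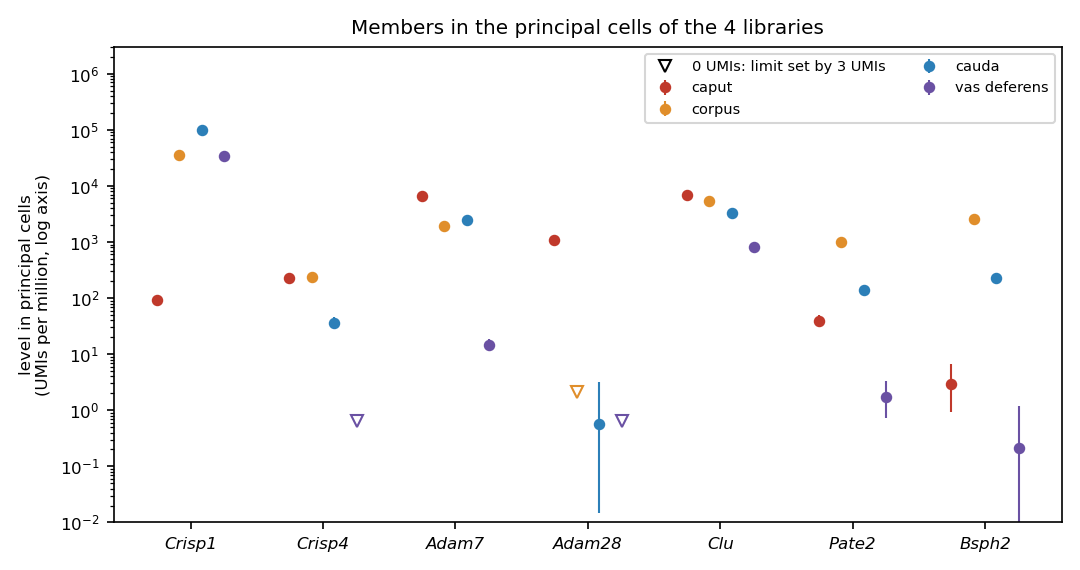
Level of each gene (UMIs per 1000000, log axis) in the principal cells of the 4 libraries; points are 1 library each, bars are exact Poisson intervals, and open triangles are limits set by 3 UMIs where a library had 0. *Crisp1* is lowest in the caput at 92.8 UPM and highest in the cauda at 100371 UPM, while *Adam28* is at 1083 UPM in caput and at or near 0 elsewhere.

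The second comparison asked how the genes differed along the duct in principal cells. *Crisp1*, a secreted protein that binds the sperm head and takes part in sperm-egg fusion, was at 92.8 UPM in caput, 35310 UPM in corpus, 100371 UPM in cauda and 34531.5 UPM in vas deferens. The cauda was 2.84 times (2.81 to 2.87) the corpus, and the caput lay 372-fold (319 to 437) below the vas deferens. Corpus and vas deferens differed by a ratio of 1.02 (1.01 to 1.03), the smallest step among its libraries. This order did not hold, since the vas deferens was above the corpus with a mean over cells (45781 UPM in vas deferens), with size factors (50879 UPM) and in the cells with at least 1000 UMIs (33155 UPM). *Crisp4*, its relative, had another order, at 224.5 UPM in caput, 240.3 in corpus, 36.2 in cauda and 0 in vas deferens. Its caput and corpus were not separated by counting error, with a ratio of 1.07 (0.923 to 1.24), and the corpus was at least 375-fold higher than the vas deferens, where a count of 0 allowed up to 0.641 UPM (3 UMIs in that library). In the cells with at least 1000 UMIs the caput was the higher of the 2 for *Crisp4*.

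*Adam7*, which lacks the catalytic site of a protease and is carried to sperm on epididymal vesicles, was at 6516 UPM in caput, 1921 in corpus, 2496 in cauda and 14.5 in vas deferens. It was thus high in all 3 parts of the epididymis and 449-fold (354 to 578) lower in the vas deferens than in the caput. *Adam28*, a relative with a protease site, was at 1083 UPM in caput from 1866 UMIs, and had 0 UMIs in the corpus, 1 in cauda and 0 in vas deferens. Its caput level was 1884-fold (338 to 74434) that of the cauda and at least 1690-fold higher than the vas deferens. The 2 neighboring genes therefore shared their highest library and differed in the corpus and cauda.

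*Clu*, an extracellular chaperone that coats sperm and other cells, was at 6820 UPM in caput, 5401 in corpus, 3340 in cauda and 810.3 in vas deferens, lower in each library than in the library upstream. Each step was outside counting error, the smallest 1.26 (1.23 to 1.30) and the largest 4.12 (3.96 to 4.30). *Pate2*, a small protein of the Ly6/uPAR fold, was at 38.9 UPM in caput, 1016 in corpus, 142.0 in cauda and 1.71 in vas deferens. *Bsph2* codes for a binder of sperm homolog with fibronectin type II domains. It was at 2.90 UPM in caput (5 UMIs), 2549 in corpus, 223.6 in cauda and 0.214 in vas deferens (1 UMI). Both were therefore highest in the corpus and second in the cauda. The corpus was 7.15 times (6.25 to 8.22) the cauda for *Pate2* and 11.4 times (10.3 to 12.7) for *Bsph2*.

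By the rule of 4 times every other library, 3 of the 7 were restricted to 1 region, *Adam28* to the caput and *Pate2* and *Bsph2* to the corpus. Of the 8917 genes for which this was possible, 6.76% were restricted, 3.04% to caput, 1.49% to corpus, 0.628% to cauda and 1.6% to vas deferens. Not one of the 7 was restricted to the vas deferens, which with 1.6% of all genes restricted there says little about the members. In that library 6 of the 7 were at their lowest or tied at 0, a count not made over all genes. The exception was *Crisp1*, lowest in the caput.

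**Figure D2:**
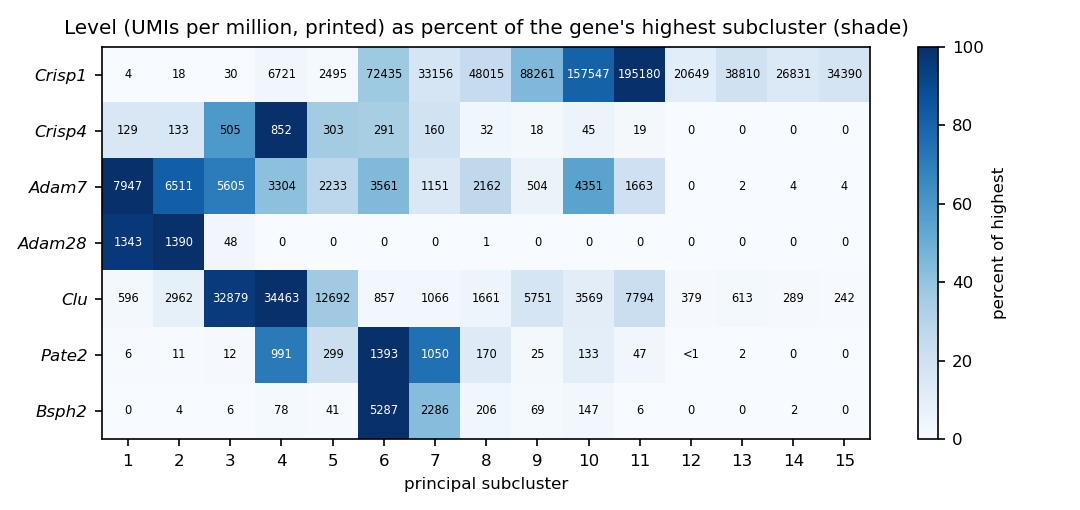
Level of each gene in the 15 principal subclusters (x axis), printed in each cell in UMIs per 1000000 and shaded as percent of the gene's own highest subcluster. *Adam28* fills principal 1 and 2, *Clu* principal 3 to 5, *Bsph2* principal 6 and 7, and *Crisp1* principal 10 and 11, where it reaches 195180 UPM.

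Within the regions, the subclusters gave a finer order. Principal 1, 2 and 3 held caput cells only, principal 4 and 5 caput and corpus cells, principal 6 and 7 mostly corpus cells, principal 8 to 11 mostly cauda cells, and principal 12 to 15 nearly only vas deferens cells. Of the 7 genes, 6 were at least 4 times the median of the 15 subclusters in at least 1 of them, against 15.9% of 6661 genes that could be. For this, subclusters below the level of 3 UMIs were raised to it, and a subcluster counted with at least 20 UMIs of the gene. The genes were *Adam28* (principal 1 and 2), *Crisp4* (3 to 6), *Clu* (3, 4, 5 and 11), *Pate2* (4 to 8 and 10), *Bsph2* (6, 7, 8 and 10) and *Crisp1* (10 and 11). Of the 52 *Bsph2* UMIs of principal 10, 16 came from 1 cell.

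*Crisp1* was at 3.92 to 30.1 UPM in principal 1 to 3, 6721 in principal 4 and 2495 in principal 5. It stood at 72435 UPM in principal 6, 33156 in principal 7 and 48015 in principal 8. Downstream it was at 88261 UPM in principal 9, 157547 in principal 10 and 195180 in principal 11, the last being 19.5% of all UMIs of these cells. Among the 93 cells of principal 11 with at least 1000 UMIs, *Crisp1* took a median of 20.8% of a cell's UMIs, with a lowest value of 3.13% and a highest of 49.3%. Without the cauda library principal 10 was above principal 11, at 166806 against 156683 UPM. In the vas deferens subclusters 12 to 15 it was at 20649 to 38810 UPM. Since shares of a cell's UMIs add up to 1, so large a share lowers the UPM of every other gene of these cells.

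*Crisp4* peaked upstream of *Crisp1*, at 852 UPM in principal 4, after 505 in principal 3 and before 303 in principal 5. It was at 129 and 133 UPM in principal 1 and 2, at 17.8 to 45.3 UPM in principal 8 to 11, and had 0 UMIs in principal 12 to 15. Principal 4 holds only 74 cells, and 98 UMIs of *Crisp4* stand behind its value.

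*Adam7* was highest in principal 1, at 7947 UPM, and then lower at each step down to 2233 UPM in principal 5. Further on its order was uneven. It stood at 3561 UPM in principal 6, 1151 in principal 7, 2162 in principal 8, 504 in principal 9, 4351 in principal 10 and 1663 in principal 11. The gene was thus higher in principal 6, 8 and 10 than in the subclusters on either side, and in principal 12 to 15 it was between 0 and 4.21 UPM. No subcluster of *Adam7* reached 4 times its median. Without the corpus library the remaining cells of principal 6, 13 of cauda and 1 of caput, were at 9487 UPM, above principal 1. Without the caput library, which holds all cells of principal 1, 2 and 3, principal 10 was highest.

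*Adam28* was at 1343 UPM in principal 1 and 1390 in principal 2, which counting error did not separate, and at 48.1 UPM (8 UMIs) in principal 3. Of the other 12 subclusters, only principal 8 had a UMI of it, and it had 1. *Clu* ran the other way within the caput, from 596 UPM in principal 1 to 2962 in principal 2 and 32879 in principal 3. It was at 34463 UPM in principal 4 and 12692 in principal 5, then 857 in principal 6. It was high again, at lower levels, in principal 9 (5751 UPM), 10 (3569) and 11 (7794). Among the 93 cells of principal 11 with at least 1000 UMIs, *Clu* took a median of 0.318% of a cell's UMIs, with a lowest value of 0% and a highest of 6.27%. In the 40 such cells of principal 4 it took between 1.25% and 5.93%. Over cells of this depth the first 2 places of *Clu* changed over, with principal 3 at 34033 UPM and principal 4 at 32604.

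*Pate2* was at 991 UPM in principal 4, 299 in principal 5, 1393 in principal 6, 1050 in principal 7 and 170 in principal 8. *Bsph2* was at 78.2 UPM (9 UMIs) in principal 4, 41.3 in principal 5, 5287 in principal 6, 2286 in principal 7 and 206 in principal 8. The genes therefore shared principal 6 as their highest subcluster, but only *Pate2* was near its peak in principal 4.

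The order of neighbors was clear to counting error in most steps for the abundant genes and in fewer for the rare ones. With the 15 subclusters of a gene ranked by level, the interval of the ratio between successive ranks lay above 1 in 13 of 14 steps for *Crisp1*, 12 for *Clu* and 9 for *Adam7*. For *Crisp4* and *Pate2* this held in 4 steps, with 6 steps in which the interval held 1, and the remaining steps set 2 subclusters at or under the floor or 1 at 0.

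**Figure D3:**
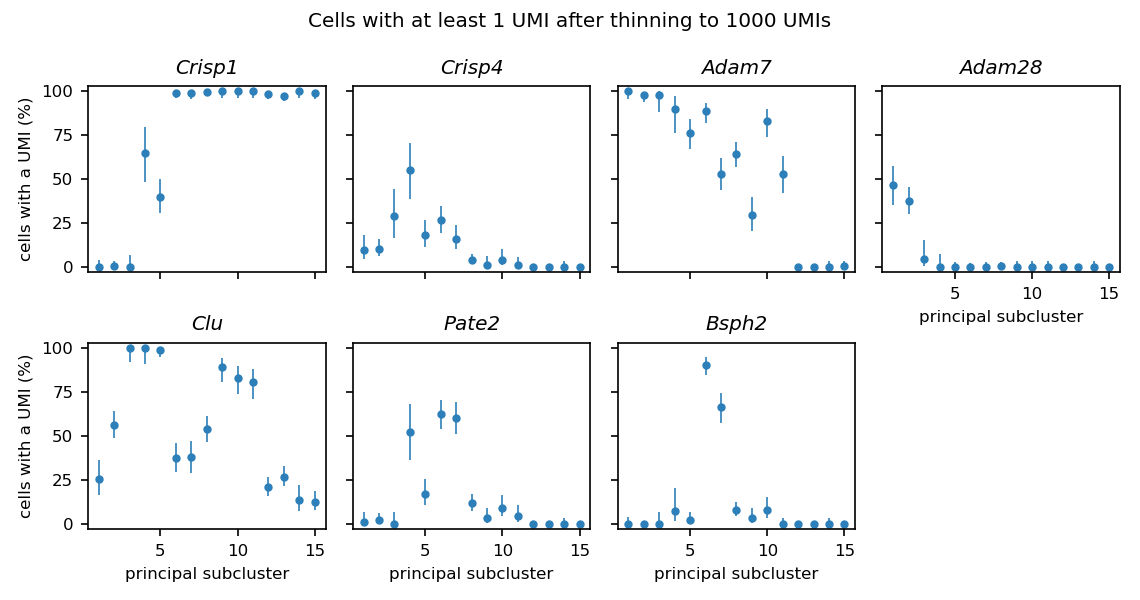
Percent of principal cells of each subcluster (x axis) with at least 1 UMI of the gene, after drawing 1000 UMIs from each cell and leaving out shallower cells; bars are Clopper-Pearson intervals, or the limit of 3 cells where no cell had a UMI. *Adam7* is found in 100% of principal 1 cells and *Adam28* in 46.3% of them.

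The number of cells that held the mRNA was compared at an equal depth of 1000 UMIs per cell, which 5703 of the 8880 cells reached. In its highest subcluster, *Crisp1* was found in 100% of 93 cells, *Adam7* in 100% of 82 and *Clu* in 100% of 40. *Bsph2* was found in 90.6% of 139 cells (84.5% to 94.9%), *Pate2* in 62.6% of 139 (54.0% to 70.6%) and *Crisp4* in 55.0% of 40 (38.5% to 70.7%). *Adam28* was found in 37.5% of 168 cells (30.2% to 45.3%) of principal 2. So 6 of the 7 were found in at least 50% of the cells of their highest subcluster, as were 4.45% of 7792 genes. As background, *Bsph2*, *Pate2* and *Crisp4* were found in 0.952%, 0.779% and 0.519% of basal cells, whose median depth was 4333 UMIs against 787 in principal 6. Without thinning, 4 of the 7 reached 50%, and with 2000 UMIs per cell all 7 did. The share of all genes was not counted at these depths, so these counts have no background.

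Principal 1 and 2, where *Adam28* and *Clu* were each found in some cells and not in others, allowed joint detection to be counted. In principal 2, 63 of 168 cells held *Adam28* and 95 held *Clu*, and 17 held both, against 35.6 from the product of the shares, a ratio of 0.477. Cells with *Clu* had *Adam28* at 468 UPM, and cells without had it at 3000 UPM. In principal 1, 38 of 82 cells held *Adam28*, 21 held *Clu* and 4 held both, against 9.73, a ratio of 0.411. The mRNAs of *Adam28* and *Clu* were thus found together less often than the product in both subclusters, and this direction held with 500 or 2000 UMIs per cell and without called doublets.

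*Crisp4* went with *Adam28* in these cells. In principal 2, 17 cells held *Crisp4*, 15 of them with *Adam28* against 6.38 from the product, and 4 with *Clu* against 9.61. *Adam7* did not divide the cells in this way, at 6508 UPM in principal 2 cells with *Clu* and 7014 UPM in those without. In the other subclusters, 33 pairs had both genes in 10% to 90% of the cells and a product of at least 5 cells, and their ratios ran from 0.703 (*Clu* with *Bsph2* in principal 7) to 1.53 (*Crisp1* with *Pate2* in principal 5). Cells of 1 subcluster come from the same 4 mice, and counts this small have wide error, so these ratios are given as descriptions.

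**Figure D4:**
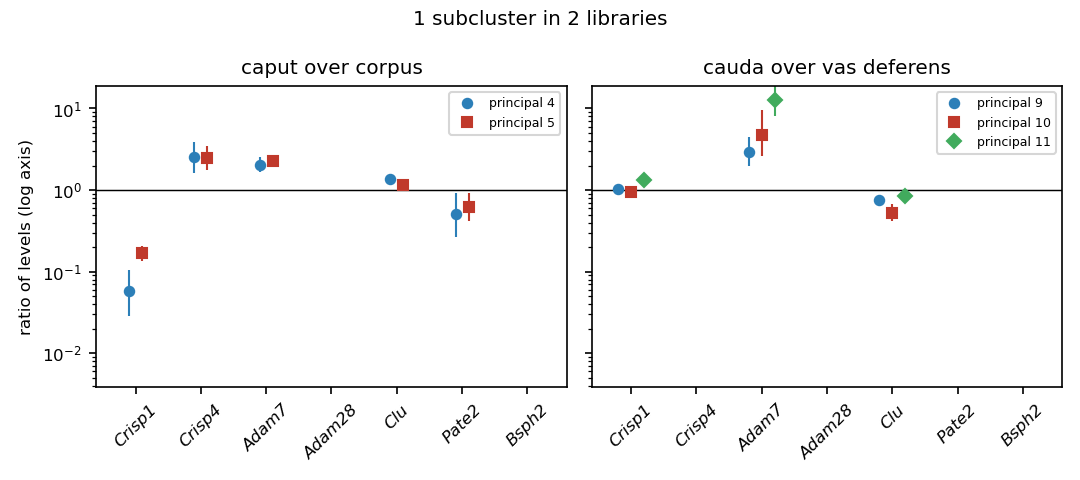
Ratio of levels (log axis) between libraries within 1 subcluster, caput over corpus at left and cauda over vas deferens at right; bars are exact intervals for counting error, and pairs with a library at 0 or fewer than 20 UMIs in both are not drawn. *Crisp1* lies far below 1 at left, and *Adam7* lies above 1 in all 5 comparisons.

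Some subclusters held cells of 2 libraries, which allowed regions to be compared in cells with the same annotation. In principal 4, with 19 caput and 55 corpus cells, *Crisp1* was at 477 UPM in caput and 8288 UPM in corpus, a ratio of 0.0575 (0.0286 to 0.104). In principal 5, with 67 and 172 cells, it was at 602 and 3608 UPM, a ratio of 0.167 (0.136 to 0.204). *Crisp4* went the other way, at 1646 against 653 UPM in principal 4 and 485 against 197 UPM in principal 5. So did *Adam7*, with ratios of 2.05 (1.64 to 2.54) and 2.28 (2.01 to 2.57). *Clu* differed least, by 1.36 (1.26 to 1.46) and 1.15 (1.09 to 1.21). *Pate2* was lower in the caput cells, by 0.513 (0.264 to 0.917) and 0.626 (0.422 to 0.912). Cells with the same annotation thus differed by library, with *Crisp1* and *Pate2* higher in the corpus and *Crisp4*, *Adam7* and *Clu* higher in the caput. *Crisp1* was also lower in caput than in corpus outside principal cells, at 2.13 against 1022 UPM in basal, 7.52 against 1270 in clear and 19.1 against 329 in stromal cells. Whether RNA free of cells had a part in these differences was not tested. In principal 6 and 7, the 13 and 18 cauda cells were above the corpus cells in *Crisp1*, by 1.87 (1.79 to 1.95) and 1.71 (1.63 to 1.79). They were also above them in *Adam7*, by 2.93 (2.47 to 3.45) and 2.31 (1.83 to 2.89). *Pate2* was lower in these cauda cells, by 0.553 (0.293 to 0.954) and 0.658 (0.422 to 0.980). *Bsph2* had no common direction, at 0.594 (0.444 to 0.780) and 1.29 (1.04 to 1.58). *Clu* was at 1.20 (0.693 to 1.96) and 0.390 (0.217 to 0.648), and the intervals of *Crisp4* held 1.

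In principal 9, 10 and 11 the cauda cells were set against the cells of the vas deferens library. *Adam7* was higher in the cauda in all 3, at 642 against 220 UPM (ratio 2.92, 1.96 to 4.49), 4471 against 940 UPM (4.75, 2.65 to 9.54) and 2292 against 179 UPM (12.8, 8.13 to 21.4). *Crisp1* had no common direction, with ratios of 1.04 (1.01 to 1.06), 0.942 (0.90 to 0.99) and 1.34 (1.31 to 1.36). *Clu* was lower in the cauda in all 3, by ratios of 0.760 (0.698 to 0.828), 0.527 (0.418 to 0.672) and 0.838 (0.774 to 0.908). The vas deferens side rests on 26, 16 and 100 cells. These cells hold 59 of the 68 *Adam7* UMIs of the principal cells of that library.

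Outside principal cells, *Clu* was found in 80.0% of basal cells at their full depth, against 13.3% for *Crisp1*, while in stromal, muscle and immune cells *Crisp1* was found in more cells than *Clu*. In basal cells *Clu* was at 2616 UPM in caput, 1345 in corpus, 1635 in cauda and 1210 in vas deferens. This was 38.4%, 24.9%, 49.0% and 149% of the level in the principal cells of the same library. At 1000 UMIs per cell, *Clu* was found in 84.0%, 61.1%, 66.5% and 58.9% of basal cells. The other members that reached 1000 UMIs among a library's principal cells stood at 0.766% to 2.89% of that level in basal cells. In basal cells *Clu* thus stood at a share of the principal level that none of these other members reached.

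Basal cells were not alike. The subset with low UMI counts (315 cells, median depth of 900 UMIs) had *Clu* at 5264 UPM, against 1467 UPM in the main basal population and 1286 UPM in the subset with *Notch2*. It was higher than the main population in each library, at 6671 against 2307 UPM in caput, 4747 against 1068 in corpus, 5808 against 1540 in cauda and 2364 against 1210 in vas deferens. Other members were higher in this subset too, *Crisp1* at 979 UPM against 607 in the main population, *Adam7* at 82.6 against 30.2, *Bsph2* at 41.3 against 15.5 and *Pate2* at 32.4 against 9.81. *Crisp4* had 3 UMIs there and *Adam28* had 0. Whether the low depth has a part in these values was not tested.

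**Figure D5:**
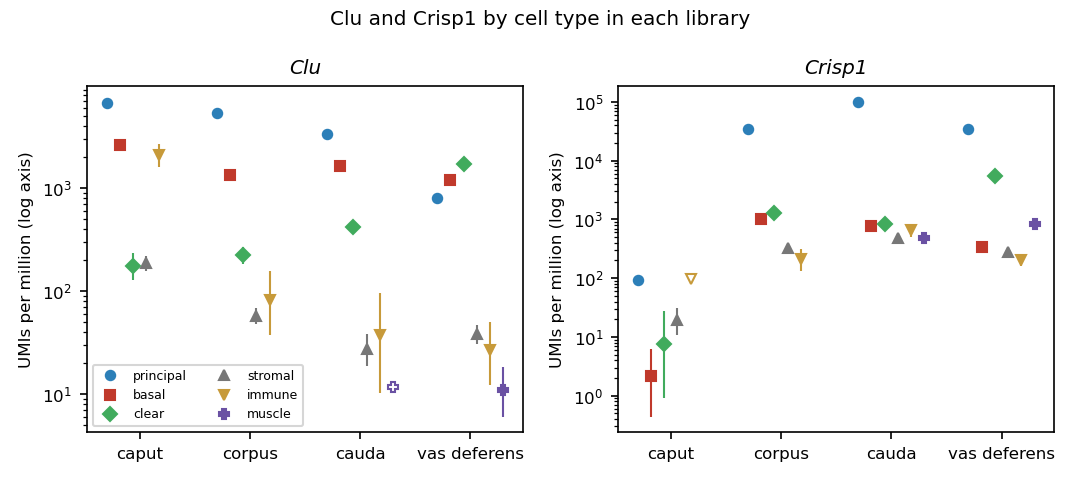
Level (UMIs per 1000000, log axis) of *Clu* at left and *Crisp1* at right by cell type in each library; bars are exact Poisson intervals, open symbols are limits of 3 UMIs for groups at 0, and groups of fewer than 10 cells are not drawn. *Clu* in principal cells lies above basal and clear cells in the caput, corpus and cauda and below both in the vas deferens, where 178 of the 260 UMIs of the clear cells came from 1 cell.

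In the vas deferens *Clu* was at 810.3 UPM in principal cells, below basal cells. The ratio of principal over basal cells was 2.61 in caput, 4.02 in corpus, 2.04 in cauda and 0.670 (0.632 to 0.710) in the vas deferens. The last turned over when each cell's UMIs, of *Clu* and of all genes, were divided by the authors' size factor before summing. It was then 0.25 on the log2 scale, from -0.58. Clear cells had *Clu* at 177 UPM in caput, 225 in corpus, 418 in cauda and 1736 in vas deferens. The vas deferens value comes from 38 cells, and 178 of its 260 UMIs were in 1 of them. Without that cell the clear cells were at 585 UPM, below the principal cells. The *Crisp1* of these 38 cells, at 5587 UPM, was the highest of any type and library outside principal cells, 16.2% of that in principal cells, and was 4903 UPM without the cell that held most. In the clear cells of the other libraries the members other than *Clu* with at least 1000 UMIs in principal cells were at 0.821% to 4.85%. With called doublets left out, principal over clear cells for *Clu* was -1.30 on the log2 scale, against -1.10 with them. Whether free RNA had a part in the clear cells of the vas deferens was not tested.

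In the types that are not epithelium, *Crisp1*, the member with most UMIs, was at 789.5 UPM in muscle, 495.6 in endothelial, 297.3 in stromal and 276.6 in immune cells. These levels differed by library. In stromal cells *Crisp1* was at 19.1 UPM in caput, 329 in corpus, 488 in cauda and 276 in vas deferens. The 50 endothelial and 11 immune cells of the caput had 0 UMIs of it. Whether free RNA had a part in these values was not tested. *Clu* was at 10.5 UPM in muscle, 196 in endothelial, 61.3 in stromal and 147.7 in immune cells, and 60 of the 64 UMIs of the 11 caput immune cells were in 1 cell. Each of the other 5 members was at 13.2 UPM or less in these 4 types.

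The families of the 7 genes were listed by name, with earlier results of these data known. Of 15 genes of the CAP family, to which the CRISP proteins belong, 11 were in the table and 9 had at least 20 UMIs. Of these, 3 were highest in principal cells, *Crisp1*, *Crisp4* and *Crisp3*. Of all genes that reached 20 UMIs in a cell type, 22.1% were highest there. *Crisp3* had 33 UMIs in all, and *Crisp2*, a testis gene, had 2, both in principal cells. Besides *Crisp1* and *Crisp4*, the family's genes with most UMIs were *Crispld2*, highest in stromal cells (572 UPM), and *Glipr2*, highest in clear cells (203 UPM). Of 24 ADAM genes, 13 had at least 20 UMIs and 3 were highest in principal cells, against the same 22.1% of all genes. After *Adam7*, the genes with most UMIs were the sheddase *Adam10*, at 71.5 to 106 UPM in the 4 libraries, *Adam28*, and *Adam9*, at 19.0 to 36.9 UPM, so that *Adam10* and *Adam9* varied far less along the duct than *Adam7*. The other gene highest in principal cells, named after its values were seen, was *Adam23*, which lacks a protease site. It was at 30.8 UPM in principal cells and nearly as high in stromal cells, at 26.2 UPM. Within principal cells *Adam23* was restricted to the vas deferens at 59.6 UPM, against 0 in caput, 0.705 in corpus and 8.62 in cauda. Its values in principal 12 to 15 were 50.6 to 65.9 UPM. *Adamdec1*, which lies between *Adam7* and *Adam28*, had 5 UMIs in all.

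*Bsph1*, the only other listed binder of sperm gene, lies 81415 bases from *Bsph2*. It was restricted to the caput, at 346 UPM against 8.46 in corpus, 0.575 in cauda and 0 in vas deferens, and peaked in principal 3 at 2081 UPM. *Bsph2* was restricted to the corpus, so the 2 genes had their peaks in different regions. *Pate4*, which overlaps *Pate2* on the other strand, was at 25.4 UPM in corpus and 13.5 UPM in vas deferens, where *Pate2* was at 1.71 UPM. Among receptors that can bind clusterin, *Lrp1* was highest in stromal cells, *Lrp2* in principal cells and *Trem2* in immune cells. The endocytic receptor *Lrp2* was at least 4 times higher in principal cells than in every other cell type. *Lrp2* was at 1.16 UPM in caput, 173 in corpus, 276 in cauda and 23.5 in vas deferens, with its highest values in principal 10 (498 UPM) and principal 6 (446 UPM).

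Of 24 further genes, listed for proteins of epididymal fluid or epithelium tied to the sperm surface, 19 were in the table. Among these, 17 were highest in principal cells, 13 were at least 4 times higher there than in each other type, and 9 were restricted to 1 region. Over all genes that could be called, the shares were 22.1%, 4.75% and 6.76%. Of the 17 with at least 20 UMIs in principal cells, 9 were highest in the caput, 4 in corpus, 4 in cauda and 0 in vas deferens. This split was not counted over all genes. The 4 with most UMIs were *Cd52*, a lipid-anchored glycoprotein of the sperm coat, *Gpx5*, a secreted glutathione peroxidase, *Lcn5*, a lipocalin that binds retinoids, and *Cuzd1*, a protein with CUB and zona pellucida domains. *Cd52* was at 236.7 UPM in caput and 46644 UPM in cauda. *Gpx5* was at 57990 UPM in caput and 16.1 UPM in cauda. *Lcn5* and *Cuzd1* were highest in the corpus, at 20008 and 11801 UPM.

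Each of the 7 was also set against all genes with at least 200 UMIs in principal cells, by Pearson's correlation of log2(UPM + 10) over the 15 subclusters. The points share libraries, so the values are descriptions. *Crisp1* was most like *Cd52* (r = 0.965), which was at 150 to 180 UPM in principal 1 to 3 and 53903 UPM in principal 10, followed by *Qsox1* and *Cwh43*. *Crisp4* was most like *Gpx8* (0.969), *Sec11c* and *Srd5a2*, the last a steroid 5-alpha-reductase. *Adam7* was most like *Atp2b4* (0.958), a plasma membrane calcium pump. *Atp2b4* was highest in principal 10 (238 UPM), where *Adam7* had only a local high, and was at 4.87 to 21.1 UPM in principal 12 to 15. It was followed by *Fam84a* and *Calr*.

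*Adam28* was most like *Ly6g5b* (0.999), at 1015 UPM in principal 1 and 801 in principal 2 and 0 from principal 4 on, then *Gm5916* and the secreted ribonuclease *Rnase10*. *Clu* was most like *Ido1* (0.922), a tryptophan-degrading enzyme, at 427 to 502 UPM in principal 3 to 5, then *Wfdc8* and *Dnajb9*. *Pate2* was most like *Wfdc13* (0.955), *Defb37* and *Mboat2*. *Bsph2* was most like *Npy* (0.978), which codes for neuropeptide Y, at 4444 UPM in principal 6 and 3151 in principal 7, then the beta-defensins *Defb38* and *Defb22*. Among the 21 pairs of the 7 genes themselves, *Pate2* and *Bsph2* were the most alike (0.874) and *Crisp1* and *Adam28* the least (-0.879).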

How the data were processed

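Per the labels and the study's methods, cells were captured on the 10x platform with 3′ chemistry. The authors demultiplexed reads with bcl2fastq, aligned them to mm10 with HISAT2 (version 2.0.4 in the submitters' processing notes), counted UMIs per RefSeq gene with ESAT, and merged UMIs that differed at 1 position. They kept cells within limits of total UMIs and removed ambient RNA with a modified SoupX, so the deposited counts are whole UMIs per gene and cell after that step, 3.54% fewer than before it. Free RNA that remained or was removed in excess could raise or lower values near 0. Subclusters are the authors', numbered as in the study by matching cell numbers, which were equal for all 34 populations. The deposited UMI totals and size factors per cell were also used.

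From these counts, UMIs were summed by group and divided by the group's total. Intervals are 95% exact Poisson intervals for levels, exact conditional binomial intervals for ratios and Clopper-Pearson intervals for shares, and cover counting error only. A count of 0 was read as up to 3 UMIs. Genes entered a rule with at least 20 UMIs in a group and a level that could pass over the floors of the others. Cells were thinned once, with a fixed seed. Doublets (178 cells, called by likeness to simulated pairs) were kept. Their number was set by an assumed rate. The cutoff took in 32.9% of simulated pairs in caput and up to 60.7% in vas deferens. Doublets can therefore remain where called ones were left out. With 1 library per region, no test was run. Scripts used Python 3.11.15, numpy 2.4.6, scipy 1.17.1, pandas 2.3.3 and scikit-learn 1.9.0, and the rules were tested on simulated data. Gene positions came from GENCODE on GRCm38. The genes named are the 7 members, up to 4 genes with most UMIs of each family list and the 3 genes most alike each member, and *Crisp2*, *Crisp3*, *Adam23* and *Adamdec1* were added after their values were seen. The members and lists were chosen with earlier results of these data known. A gene that the rule for named genes would name is not reported here.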

Additional observations from a re-analysis of the deposited data

Results flagged for a closer look

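*Clu* stood out because its direction between cell types differed between libraries. Principal over basal cells was 2.61 (2.51 to 2.71) in caput, 4.02 (3.86 to 4.18) in corpus and 2.04 (1.93 to 2.16) in cauda, and 0.670 (0.632 to 0.710) in vas deferens. Leaving out the basal cell with most *Clu* UMIs of the vas deferens gave 0.683. With each cell's UMIs divided by its size factor before summing, this ratio turned to 0.25 on the log2 scale, from -0.58. Principal cells were then the higher in all 4 libraries. Principal over clear cells was 38.6 (29.0 to 52.6) in caput, 24.0 (19.8 to 29.4) in corpus and 7.99 (7.03 to 9.13) in cauda, and 0.467 (0.412 to 0.531) in vas deferens. The last rests on 1 clear cell, without which it was 1.39 (1.11 to 1.75). With 1 library per region, neither difference between libraries was tested.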

How the results depend on the processing

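The 5 counts of members were recomputed 53 times, and 52 stayed within 1.5 times the reported count. The exception was the number restricted to 1 region, 5 in place of 3 at a threshold of 2 times, with *Crisp1* and *Adam7* added. With 7 members a limit of 1.5 times is wide, and it took in the loss of *Pate2* from the restricted genes at 8 times. The 52 therefore say little about how stable the counts are. *Adam28* left 3 of the counts without the caput library, which holds nearly all of its UMIs. *Pate2* was not 4 times above the other types with a mean over cells or with size factors, and *Adam7* was enriched in a subcluster with either, with a pooled reference, and without the corpus or cauda library. The ratio of principal over basal cells for *Clu* in the vas deferens turned from -0.58 to 0.25 on the log2 scale with size factors, and that over clear cells from -1.10 to 0.47 without 1 clear cell. The last alternative was chosen after seeing the data, as were those on shared barcodes, on joint detection, and on the ratios of *Clu* and of *Adam7* in principal 9 to 11. The library highest for a member was the same in 27 of 28 repeats, *Crisp4* being the exception, and the highest subcluster in 27 of 28, *Clu* being the exception. Leaving out cauda moved the highest subcluster of *Crisp1* to principal 10 (166806 UPM). Leaving out corpus moved that of *Adam7* to principal 6 (9487 UPM, from 13 cauda cells and 1 caput cell). Leaving out caput moved that of *Adam7* to principal 10 (4351 UPM) and left *Adam28* with 1 UMI in principal cells. All cells of principal 1, 2 and 3 are caput cells, so these subclusters could not then be highest. Of the levels, 60 of 152 moved by over 1.5 times with a mean over cells and 65 with size factors. The causes were not tested. No paired analysis was possible because each region has 1 library and no test was run. In principal cells, 0 UMIs allowed 0.641 to 2.11 UPM, so lower levels were not detectable.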
